A study of Homo sapiens with 6 samples.

Results

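The transcriptome of control human fetal lung fibroblasts was described across 23355 genes in the 2 siNTC libraries of a series of 6. HFL-1 is an established human lung fibroblast line of fetal origin. The siNTC cells received a non-targeting control siRNA with the transfection reagent Lipofectamine RNAiMAX, and total RNA was taken 48 h later and sequenced on an Ion Proton. The other 4 libraries of the series came from HFL-1 cells given siTAZ #1 or siTAZ #2, and they were not compared with siNTC here. The members were all entries of the deposited count table that carried a gene symbol, 23355 of 23368. The siNTC group is a model of 1 cell line in culture with serum, after a transfection and without an untransfected control, and the series design calls its 2 libraries biological replicates. The sources used here do not say whether these came from separate cultures, so the spread between them may be partly technical.

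Levels were expressed as CPM, the count of a gene per 1000000 counts on genes with a symbol. CPM shows a gene's share of the reads, to which a longer transcript gives more at the same number of molecules. For the comparison of levels between genes, CPM was divided by the summed length of the gene's exons and scaled to the same total in each library, written as TPM. The order by TPM rests on the length used: with the length of the canonical transcript, an alternative chosen after seeing the data, the highest gene changed in 13 of 41 gene lists. TPM values are the mean of 2 libraries ± SD (n = 2), and CPM values are given for replicate 1 and then replicate 2. A length on GRCh37 was found for 21455 of the 23355 genes, which held 99.1% of the counts. A gene was called detected at 1 CPM or more in both libraries. In bulk RNA, fewer cells that express a gene and less RNA per cell cannot be told apart.

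Fibroblasts are the connective tissue cells that build and remodel the extracellular matrix, the mesh of collagens, elastic fibres, glycoproteins and proteoglycans between cells. In the lung they support the alveoli and airways, exchange growth factors with the epithelium, and turn into contractile, matrix-rich myofibroblasts during repair and fibrosis. On plastic and in serum, cultured fibroblasts spread, divide and form actin stress fibres.

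The siNTC libraries held 15990711 and 16210968 counts on genes with a symbol. Of the 23355 genes, 12589 were detected (53.9%), 9497 had 10 CPM or more in both libraries, 2136 had 100 CPM or more (9.15%) and 84 had 1000 CPM or more. Each count of detected members in a list below is to be read beside these shares of all genes. The 84 genes took 19.9% of the counts, and 889 genes made up 50% of them. At the other end, 3715 genes (15.9%) had 0 counts in both libraries, which allows a level of up to 0.0932 CPM at 3 counts over the group, and 2784 genes had counts in 1 library only. These floors cover counting error only. Among the genes with 0 counts in both, 1843 were protein-coding (9.84% of the protein-coding genes of the table) and 889 were microRNA genes (83.3% of those listed). No mitochondrially encoded gene was in the table.

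The label was then set against its markers. All 6 lung fibroblast markers were detected. COL1A2 and COL1A1, the chains of type I collagen, had 12077 and 12348 CPM (COL1A2) and 8794 and 9482 CPM (COL1A1). Fibronectin (FN1) had 8013 and 7939 CPM, and the intermediate filament gene VIM had 5731 and 5196 CPM. The surface glycoprotein THY1 had 434 and 442 CPM, and PDGFRB, a receptor for platelet-derived growth factors, had 248.6 and 243 CPM. Of 10 further fibroblast markers, 9 were detected, among them NT5E (1077 and 986 CPM), DCN (711 and 733 CPM), PDGFRA (441 and 392 CPM) and FAP (78.5 and 70.01 CPM). The exception was PDPN, the gene of podoplanin, with 9 and 13 counts.

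**Figure D1:**
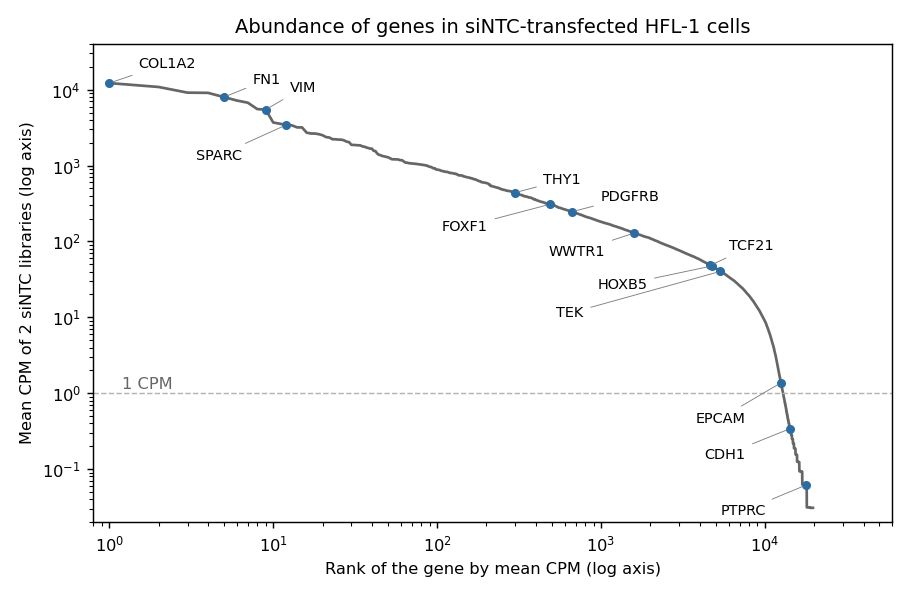
Mean CPM of the 2 siNTC libraries (y axis, log) against the rank of each gene with at least 1 count (x axis, log), with named genes as points and 1 CPM as a dashed line. By share of the reads COL1A2 stood first, the transcription factor genes FOXF1 and TCF21 lay between 10 and 1000 CPM, and the epithelial gene CDH1 lay under 1 CPM.

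The 10 genes with the most CPM were COL1A2, ACTB, COL1A1, EEF1A1, FN1, ACTG1, COL6A3, COL3A1, VIM and EEF2, which took 7.69% and 7.89% of the counts. The list held 5 matrix genes, 2 cytoplasmic actins, 1 intermediate filament gene and 2 translation elongation factors. COL1A2 lies at chromosome 7, 94024207 to 94060539, plus strand of GRCh37, and COL1A1 at chromosome 17, 48261462 to 48278993, minus strand. Per length, the order changed, and 16 of the 25 highest genes by TPM were among the 25 highest by CPM.

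Per length, the highest gene was TMSB10, whose small protein binds actin monomers, with 2395 and 2622 CPM and 24876 ± 1635 TPM. It was followed by ACTB (11259 ± 682 TPM), the ferritin light chain gene FTL (10848 ± 568 TPM) and ACTG1 (8116 ± 171 TPM). The related TMSB4X had 5899 ± 306 TPM, COL1A2 had 5164 ± 90.2 TPM, and LGALS1, which encodes galectin-1, had 4931 ± 308 TPM. The order of near neighbours was not fixed: of the 24 neighbouring pairs among the 25 highest genes, 11 had the same order in each library and the others swapped. With the length of the canonical transcript, ACTB stood first and TMSB10 after it, and 20 of the 25 genes stayed among the 25 highest. The 10 highest genes took 9.03% of the level summed over genes. Near the top, replicate 1 held TMSB10 and FTL ahead of ACTB, and replicate 2 held TMSB10 and ACTB ahead of FTL.

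Among the 25 highest were also VIM, COL1A1, TUBA1B and TUBB (tubulins), GAPDH (glycolysis), CALR (a chaperone of the endoplasmic reticulum), RPL41 (a ribosomal protein), EEF2, EEF1A1, S100A6 (a calcium-binding protein), COL3A1, SPARC, UBB (ubiquitin), PFN1 (profilin), SLC25A6 (a mitochondrial ADP/ATP carrier), RPL23P8 and ANXA2P2. The means of these genes ran from 2966 to 7407 TPM. The last 2 are annotated as processed pseudogenes, with 739 and 648 CPM (RPL23P8) and 1553 and 1554 CPM (ANXA2P2), beside 669 and 692 CPM for the parent gene ANXA2. The reads of such near-identical copies can be assigned to either gene, so these values are uncertain. The same holds for the actin-like genes POTEE (303 and 305 CPM) and POTEF (438 and 440.1 CPM), for AMY1A, and for the ribosomal protein gene RPL21, which was listed at 0 counts in both libraries.

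The bases just upstream of the transcription start are shown for 9 genes, those with a RefSeq entry among the 10 with the most CPM and the 10 highest per length. The TATA box lies there in a minority of genes and positions the transcription machinery. The letters TATAA, sought on either strand, were more common in promoters of the highest genes and of those not detected than in promoters between them. The sequences are RefSeq's on GRCh38.p14, 60 bases up to the base before the start site, read 5′ to 3′ along the gene, with the letters TATAA in capitals where they begin 40 to 20 bases before the start. EEF1A1 is at chr6:73521033-73521092 on the minus strand, FN1 at chr2:215436069-215436128 on the minus strand, EEF2 at chr19:3985464-3985523 on the minus strand, TMSB10 at chr2:84905596-84905655 on the plus strand, VIM at chr10:17228181-17228240 on the plus strand, COL6A3 at chr2:237414165-237414224 on the minus strand, ACTG1 at chr17:81512800-81512859 on the minus strand, FTL at chr19:48965249-48965308 on the plus strand and TMSB4X at chrX:12975050-12975109 on the plus strand.
EEF1A1: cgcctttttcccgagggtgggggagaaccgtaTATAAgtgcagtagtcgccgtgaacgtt
FN1: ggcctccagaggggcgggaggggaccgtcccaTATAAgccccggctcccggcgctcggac
EEF2: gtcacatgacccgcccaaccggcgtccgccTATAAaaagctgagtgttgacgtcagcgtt
TMSB10: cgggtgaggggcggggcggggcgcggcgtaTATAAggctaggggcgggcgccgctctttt
VIM: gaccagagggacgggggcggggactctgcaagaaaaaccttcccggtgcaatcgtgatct
COL6A3: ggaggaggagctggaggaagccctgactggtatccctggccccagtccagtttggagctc
ACTG1: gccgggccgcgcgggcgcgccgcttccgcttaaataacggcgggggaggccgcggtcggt
FTL: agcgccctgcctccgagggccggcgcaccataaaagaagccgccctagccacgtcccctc
TMSB4X: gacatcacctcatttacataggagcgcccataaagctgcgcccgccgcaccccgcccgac

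The letters stood at −28 in EEF1A1 and FN1 and at −30 in EEF2 and TMSB10, and the windows of the other 5 genes did not hold them. TATAA, searched on both strands (TTATA on the other), was in this window of 4.72% of all 35116 promoters. It was in 10.2% of the 7321 promoters of genes that were not detected and in 3.14% of the 14426 promoters of detected genes. Among detected genes the share was 3.36% at a mean of 1 to 10 CPM, 2.52% at 10 to 100 CPM, 4.28% at 100 to 1000 CPM and 18.9% (20 of 106 promoters) at 1000 CPM or more. On the strand of the gene alone, the shares were 9.32% for genes not detected, 2.59% for detected genes and 16% at 1000 CPM or more. The promoters of detected matrix genes held the letters in 14.1% (12 of 85), those of cytosolic ribosomal protein genes in 13.1% (11 of 84). A promoter was matched for 15468 of the 23355 genes, and COL1A1, COL1A2, COL3A1 and ACTB were not among them. A match is a description of the letters and was not tested.

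The products that fibroblasts lay down around themselves came next. Over 6 lists of structural matrix genes (137 genes), 91 were detected, 52 had 100 CPM or more, and together they took 7.62% of the counts in each library. The detected share was 66.4%, beside 53.9% of all genes, and 9.15% of all genes had 100 CPM or more. Per length the list took 4.14% of the summed level. The median level over the 137 genes was 16.3 TPM, beside 5.16 TPM over all genes with a length.

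Fibrillar collagens, which form the tensile fibres of connective tissue, were led by the 3 chains of types I and III. Of 11 genes, 10 were detected, and they took 2.92% and 2.95% of the counts. COL1A2 and COL1A1 had 5164 ± 90.2 TPM and 4638 ± 255 TPM, and COL1A2 stood above COL1A1 in both libraries. COL3A1 followed at 3749 ± 283 TPM. The type V chain COL5A2 (1105 ± 34.8 TPM) stood above its partner COL5A1 (190.1 ± 5.89 TPM), and COL11A1, a minor fibrillar chain, was at 81.6 ± 0.6002 TPM. The cartilage collagen COL2A1 had 8.57 and 6.6 CPM, and COL11A2 was the member not detected (18 and 9 counts).

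Of 33 other collagens, 18 were detected, a share of 54.5% beside 53.9% of all genes. The 3 main chains of type VI collagen, a beaded filament around cells, were the highest, with 1579 ± 36.9 TPM for COL6A2, 1430.3 ± 61.8 TPM for COL6A3 and 1405 ± 97.1 TPM for COL6A1. The basement membrane chains COL4A1 and COL4A2 had 324 ± 3.53 TPM and 266 ± 2.9 TPM, while COL4A3 and COL4A4, the chains of the glomerular and alveolar type, had 12 and 16 counts (COL4A3) and 8 and 8 counts (COL4A4). COL12A1, a fibril-associated collagen, had 228 ± 3.69 TPM. The epithelial COL17A1 had 8 and 7 counts, and the growth plate collagen COL10A1 had 3 and 17 counts.

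Of 20 genes of elastic fibres and microfibrils, 17 were detected, a share of 85% beside 53.9% of all genes. The microfibril protein gene MFAP4 was highest per length (638 ± 82.6 TPM), followed by LTBP1, which stores latent TGF-β in the matrix (525 ± 11.9 TPM), FBLN1 (237 ± 3.86 TPM) and EMILIN1 (204 ± 8.78 TPM). The fibrillin genes FBN1 and FBN2 had 462 and 462 CPM (FBN1) and 273 and 274 CPM (FBN2). Elastin itself (ELN) was lower, with 28.6 and 29.9 CPM and 20.4 ± 0.664 TPM. FBN3, EMILIN3 and MFAP5 were not detected, and MFAP5 had 0 and 2 counts.

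Adhesive and matricellular glycoproteins, which link cells to the matrix or modulate that link, took 2.18% and 2.1% of the counts. SPARC, a collagen-binding protein, led per length (3383 ± 189 TPM), followed by CTGF (2416 ± 74.6 TPM), FN1 (2118 ± 10.2 TPM), TGFBI (1882 ± 87.9 TPM), TNC (1059 ± 67.4 TPM) and THBS1 (1016 ± 16 TPM). With the canonical transcript TGFBI led with 3010.0 TPM, SPARC had 2555 TPM and CTGF 1358 TPM. CYR61, like CTGF a matricellular protein of the CCN family, had 413 and 449 CPM, and periostin (POSTN) had 485 and 472 CPM. In all, 15 of 25 were detected, a share of 60% beside 53.9% of all genes. The lowest per length were TNR (0 and 1 counts), SMOC2 (1 and 0 counts) and TNN (2 and 2 counts).

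Basement membrane genes were detected in 14 of 16 cases, a share of 87.5% beside 53.9% of all genes. The laminin γ1 chain LAMC1 (460.5 ± 6.01 TPM) was joined by LAMB1 (145 ± 3.61 TPM), LAMB2 (215 ± 6.58 TPM) and LAMA4 (159.8 ± 3.94 TPM), and the linker proteins NID2 and NID1 had 365 ± 12.2 TPM and 242 ± 2.08 TPM. Chains of epithelial laminin were lower, with 1.06 and 1.48 CPM for LAMA3 and 14.8 and 13.6 CPM for LAMB3. LAMC3 had 0 and 1 counts.

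Of 32 proteoglycan genes, 17 were detected, a share of 53.1% beside 53.9% of all genes. Biglycan (BGN) and the hyaluronan receptor CD44 were the highest per length, at 604 ± 4.17 TPM and 589 ± 18.9 TPM, followed by the syndecan SDC4 (357 ± 5.64 TPM) and decorin (DCN, 255 ± 5.93 TPM). Lumican (LUM) had 124 and 104 CPM and versican (VCAN) 463 and 438 CPM. Among other small leucine-rich members, PODN had 3.44 and 4.38 CPM, with 0 counts in both libraries for OMD, 1 and 0 counts for OGN, 0 and 2 counts for ASPN and 0 and 1 counts for KERA. The syndecans SDC1, SDC2, SDC3 and SDC4 were all detected, while of the glypicans GPC3 had 1 and 1 counts and GPC1 300.0 and 309 CPM. For hyaluronan, the long sugar chain of the matrix, HAS2 was the synthase detected at the highest level per length (55.4 ± 2.4 TPM), with 2.21 ± 0.253 TPM for HAS3 and 1 and 0 counts for HAS1.

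**Figure D2:**
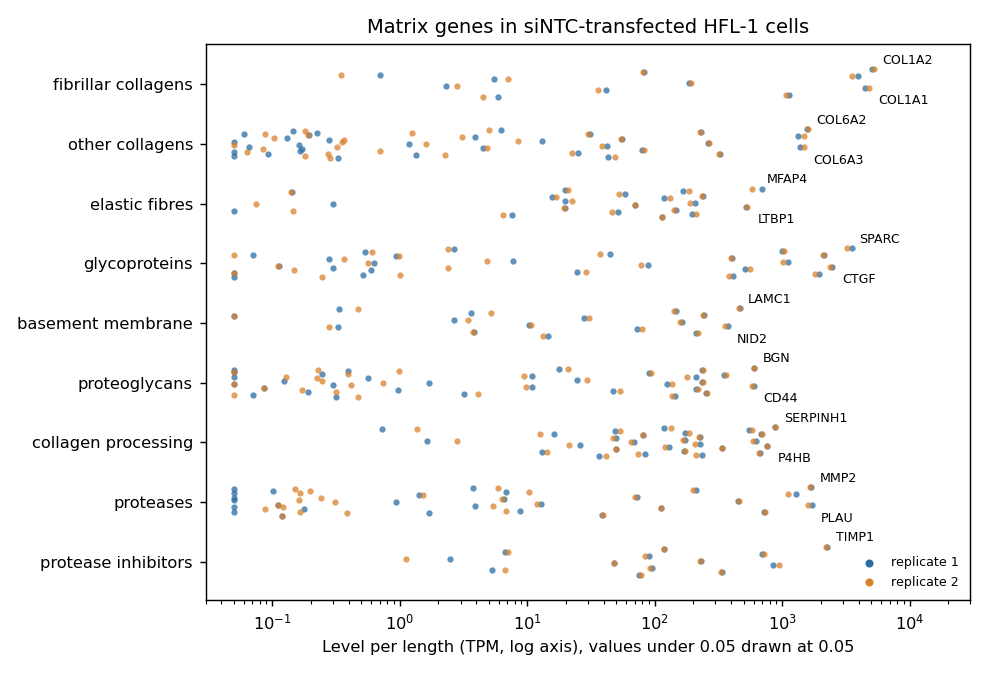
Level per length (TPM, x axis, log) of each gene in 9 lists of matrix genes, with replicate 1 in blue, replicate 2 in orange, up to 2 of the highest genes of each list named and values near 0 drawn at the left edge. COL1A2 lay highest, at 5100.0 and 5228 TPM, and COL1A1 followed at 4458 and 4819 TPM.

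The enzymes that modify and crosslink collagen were nearly all present. Of 27 genes, 26 were detected, a share of 96.3% beside 53.9% of all genes. At 100 CPM or more were 16 of them, beside 9.15% of all genes. The collagen chaperone SERPINH1 (HSP47) had 881 ± 5.77 TPM, P4HB, a subunit of prolyl 4-hydroxylase, had 761 ± 7.12 TPM, and the prolyl isomerases FKBP10 and PPIB had 689 ± 6.2 TPM and 668 ± 10.4 TPM. With the canonical transcript P4HB led with 1953 TPM, PPIB had 1836.5 TPM and SERPINH1 1511 TPM. PCOLCE, which enhances procollagen cleavage, had 607 ± 29.9 TPM. Among the crosslinking oxidases LOXL2 (566 ± 16.6 TPM) stood above LOX (171 ± 2.78 TPM) and LOXL1 (126 ± 11.1 TPM). The member not detected was PCOLCE2 (9 and 17 counts).

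Of 28 matrix proteases, 15 were detected, a share of 53.6% beside 53.9% of all genes. The gelatinase MMP2 (1681 ± 24.7 TPM), the plasminogen activator PLAU (1648 ± 87.4 TPM), the collagenase MMP1 (1204 ± 119 TPM) and the membrane protease MMP14 (733 ± 8.85 TPM) were the highest. The other gelatinase, MMP9, had 0 and 2 counts, and MMP7 had 0 and 1 counts. All 13 protease inhibitors were detected. TIMP1 was the highest (2239.9 ± 37.5 TPM), and TIMP2 had 708 ± 19.1 TPM.

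Secreted signals were next ordered by pathway. TGF-β and BMP ligands direct matrix production and cell fate, and antagonists hold them back. The antagonists counted here were not all soluble, since the list held transmembrane proteins such as CRIM1. Of 27 ligands, 11 were detected (40.7%) and none reached 100 CPM in both libraries, while 10 of 14 antagonists were detected (71.4%) and 5 did. The shares over all genes were 53.9% detected and 9.15% at 100 CPM or more. GDF5 (87.7 and 96.8 CPM), BMP4 (103 and 88.6 CPM) and TGFB1 (73.4 and 64.1 CPM) were the highest ligands, with 160.4 ± 11.5 TPM, 142 ± 14.8 TPM and 96.3 ± 9.06 TPM. Follistatin (FST), which binds activins, had 567 and 569.9 CPM and 945 ± 4.58 TPM, FSTL1 had 1640.1 and 1700.3 CPM and 812 ± 22.1 TPM, and the BMP antagonist GREM1 had 868 and 884 CPM and 271 ± 3.96 TPM. The level per length summed to 0.258% for the antagonists and 0.0549% for the ligands. NODAL and BMP10 had 0 counts in both libraries, BMP7 had 7 and 2 counts, and NBL1, an antagonist, was listed at 1 and 1 counts. Reads that fall on overlapping genes can be left uncounted, so a value as low as that of NBL1 does not show that the gene is silent.

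The insulin-like growth factor system was represented by its binding proteins. IGFBP5 had 2686 and 2594 CPM (1867 ± 42.7 TPM), and IGFBP4, IGFBP3, IGFBP7 and IGFBP6 followed with 633 ± 7.2 TPM, 321 ± 21.8 TPM, 256 ± 3.27 TPM and 203 ± 23.3 TPM. The ligand IGF1 had 1.31 and 1.36 CPM. IGF2 and IGFBP1 were listed at 0 counts in both libraries. The exons of IGF2 overlap those of the readthrough gene INS-IGF2, also at 0, and reads that fall on both can be left uncounted, so the value of IGF2 is uncertain. The receptor IGF1R had 121 and 122 CPM.

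Of 43 other growth factor genes, 30 were detected, a share of 69.8% beside 53.9% of all genes. GAS6, the ligand of the AXL receptor, was the highest per length (390.4 ± 16.5 TPM), followed by midkine (MDK, 292 ± 11.2 TPM), ANGPTL2 (244 ± 0.234 TPM), VEGFC (187 ± 0.52 TPM), HGF (154 ± 1.26 TPM) and pleiotrophin (PTN, 151 ± 21.9 TPM). Factors that mesenchyme is known to send to lung epithelium differed among themselves: HGF had 331 and 326 CPM, FGF7 had 68.2 and 65.8 CPM (47 ± 1.14 TPM), and FGF10 had 4 and 5 counts. The lowest members were ANGPT2 (1 and 0 counts), TGFA (1 and 1 counts) and FGF14 (2 and 1 counts).

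Of 19 Wnt ligand genes, 7 were detected, a share of 36.8% beside 53.9% of all genes, and 3 had 5 CPM or more in both libraries. Only WNT5A, a ligand of noncanonical Wnt signaling, passed 100 CPM (263 and 273 CPM). Per length it was followed by WNT5B (85.4 ± 2.74 TPM) and the lung mesenchyme gene WNT2 (16.4 ± 2.22 TPM). In the list of secreted Wnt inhibitors, SFRP1 (1940.1 and 1812 CPM) and DKK3 (1112 and 1081 CPM) were higher than WNT5A. Per length they had 1812 ± 83.9 TPM and 419 ± 7.62 TPM, beside 171 ± 5.1 TPM for WNT5A. Whether DKK3 inhibits Wnt signaling in these cells was not tested. With the canonical transcript SFRP1 had 1079.8 TPM and DKK3 1116 TPM. SFRP2, a close relative of SFRP1, had 0 counts in both libraries, and SFRP4 had 0 and 1 counts.

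Of 44 cytokine and chemokine genes, 16 were detected, a share of 36.4% beside 53.9% of all genes. MIF was the highest per length (528 ± 4.09 TPM), then CXCL12 (97.6 ± 9.03 TPM), LIF (73.6 ± 5.8 TPM), CCL2 (53.6 ± 2.6 TPM) and CXCL1 (47.2 ± 0.954 TPM). IL6, which fibroblasts release when inflamed, had 11 and 35 counts, and IL8 had 10.5 and 9.62 CPM. TNF, OSM, IFNB1, IL33, CCL8 and CCL20 had 0 counts in both libraries. In prostaglandin synthesis, PTGS1 had 157 and 154 CPM, while the inducible PTGS2 had 3.81 and 6.29 CPM and the prostaglandin-degrading enzyme HPGD had 0 and 1 counts.

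Receptors were read beside their ligands. Of 58 receptor tyrosine kinases, 32 were detected, a share of 55.2% beside 53.9% of all genes. AXL was the highest per length (855 ± 31.1 TPM), followed by PDGFRA (199 ± 16.3 TPM), PDGFRB (157 ± 2.31 TPM), PTK7 (119.7 ± 2.005 TPM), EPHA2 (104 ± 3.44 TPM) and EPHB4 (91.9 ± 1.13 TPM). For the AXL pair, ligand and receptor had 100 CPM or more in each library (529.6 and 498 CPM for GAS6 and 937 and 984 CPM for AXL). For the PDGF receptors, PDGFC had 127 and 112 CPM and PDGFD 17.2 and 11.3 CPM, while PDGFA had 9.01 and 7.46 CPM and PDGFB 3 and 1 counts.

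In other pairs ligand and receptor were unequal. MET, the receptor of HGF, had 54.1 and 56.3 CPM and 34.9 ± 1.06 TPM, beside 154 ± 1.26 TPM for HGF. FGFR1 had 84 ± 0.102 TPM, while FGFR2, an isoform of which binds FGF7, had 4 and 2 counts. KITLG had 46.1 ± 4.36 TPM and its receptor KIT 0.691 ± 0.413 TPM (39 and 16 counts). VEGFA had 26.6 ± 0.544 TPM, and its main endothelial receptor KDR had 0.201 ± 0.157 TPM (2 and 7 counts). Another VEGFA receptor, FLT1, was detected, with 6.07 and 4.93 CPM (2 ± 0.287 TPM). CXCL12 had 123 and 139.6 CPM, and its receptor CXCR4 had 1 and 1 counts, or 0.0978 ± 0.000772 TPM.

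TGF-β and BMP receptors were detected in 12 of 14 cases, a share of 85.7% beside 53.9% of all genes. The type II receptor TGFBR2 (306 ± 13.5 TPM) and the coreceptor endoglin (ENG, 256 ± 0.232 TPM) led, and the type I receptor TGFBR1 was lower (13.8 and 14.6 CPM, 8.1 ± 0.338 TPM). ACVR1C and AMHR2 were not detected. Of 26 integrin genes, which encode the cell's matrix receptors, 16 were detected, a share of 61.5% beside 53.9% of all genes. The shared β1 subunit ITGB1 (830.0 ± 9.38 TPM) and ITGA5, its partner in the fibronectin receptor (652 ± 21.1 TPM), were followed by ITGB5 (120.5 ± 3.39 TPM), ITGA3 (119.6 ± 5.12 TPM), ITGA6 (82.9 ± 6.34 TPM) and ITGA2 (79.2 ± 9.75 TPM). The leukocyte β2 subunit ITGB2 had 1 and 1 counts, the epithelial β6 subunit ITGB6 2 and 4 counts and ITGAD 0 counts in both libraries. ITGA8 had 1.88 and 1.3 CPM.

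Of 34 cytokine receptor genes, 25 were detected (73.5%), against 16 of 44 cytokine genes (36.4%) and 53.9% of all genes. TNFRSF11B, the gene of the secreted decoy receptor osteoprotegerin, was the highest (414 ± 32.7 TPM), and the signaling receptors TNFRSF12A, TNFRSF10B and TNFRSF1A followed (287 ± 31 TPM, 227 ± 11.9 TPM and 221 ± 7.95 TPM). With the canonical transcript TNFRSF12A had 298 TPM and TNFRSF11B 280.2 TPM. IL6ST, the subunit shared by receptors of the IL-6 family, had 336 and 353 CPM, with 161 and 154 CPM for OSMR, 54.2 and 47.3 CPM for LIFR and 47.8 and 46.7 CPM for IL6R. The ligand OSM had 0 counts in both libraries. IL2RG and CSF2RA, receptors of blood cells, were listed at 0.

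Among 52 G protein-coupled receptors, 33 were detected, a share of 63.5% beside 53.9% of all genes. LPAR1, a receptor for lysophosphatidic acid, and F2R, the thrombin receptor PAR1, were the highest. LPAR1 had 507 and 512 CPM (563 ± 5.17 TPM), and F2R had 417 and 403 CPM (471 ± 10.5 TPM). The bradykinin receptors BDKRB1 and BDKRB2 had 161 ± 15.1 TPM and 153 ± 2.31 TPM. The endothelin receptor EDNRA had 46 and 43.2 CPM and EDNRB 9.51 and 7.34 CPM, the prostaglandin E2 receptor PTGER2 had 45.2 and 39.5 CPM, and the angiotensin receptors AGTR1 and AGTR2 had 34 and 15 counts (AGTR1) and 0 counts in both libraries (AGTR2). Of 15 Wnt receptor genes, 12 were detected, led by FZD7 (134 ± 5.51 TPM), FZD2 (125 ± 4.86 TPM) and FZD6 (77.3 ± 2.83 TPM). ROR2, which binds WNT5A, had 11.7 and 8.45 CPM. In the Notch system NOTCH2 was the highest receptor (56.5 ± 1.69 TPM), beside 11.9 ± 2.37 TPM for the ligand JAG1.

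Cytoskeletal genes shape the cell and let it pull on the matrix. All 40 contractile and stress fibre genes were detected, beside 53.9% of all genes, and they took 5.05% and 5.26% of the counts. At 100 CPM or more were 35 of them, beside 9.15% of all genes. After TMSB10, ACTB, ACTG1, TMSB4X, VIM and PFN1, the highest were the actin crosslinker FLNA (1425 ± 75.9 TPM) and the tropomyosin TPM2 (1183 ± 95 TPM). The genes usually read as signs of a myofibroblast or smooth muscle state were lower: TAGLN had 766 and 890.4 CPM (578 ± 62.2 TPM), ACTA2, which encodes α-smooth muscle actin, had 177 and 186 CPM (147 ± 5.55 TPM), ACTG2 had 428 and 445 CPM (524 ± 15.2 TPM), and CNN1 had 38.6 and 35.8 CPM (59.96 ± 3.16 TPM). The actin genes are close paralogues, so their values are uncertain. The smooth muscle myosin MYH11 had 7.69 and 8.7 CPM and desmin (DES) 2.13 and 2.84 CPM. Of 7 genes of caveolae, the small pits of the cell membrane, 5 were detected, led by CAV1 (1569 ± 41 TPM) and PTRF (1540.0 ± 41.3 TPM), and the muscle gene CAV3 had 2 and 0 counts.

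Transcription factor genes were read by family. Of 21 factors of lung mesenchyme, 17 were detected, a share of 81% beside 53.9% of all genes. The forkhead gene FOXF1, which is needed for lung mesenchyme, was the highest (340.1 and 276 CPM, 399.8 ± 58.5 TPM), followed by the cell cycle factor FOXM1 (179 ± 6.56 TPM) and by FOXF2 (100.1 ± 0.685 TPM), TBX3 (99.9 ± 3.08 TPM), TBX2 (93.6 ± 4.4 TPM) and TBX5 (61.7 ± 2.95 TPM). TCF21 had 43.7 and 53.1 CPM and TBX4 23.3 and 26.3 CPM. The Hedgehog effectors GLI2 and GLI3 had 35.1 and 33.9 CPM (GLI2) and 46.4 and 50.8 CPM (GLI3). The mesothelial and renal factor WT1 had 6 and 4 counts, and MEOX1 and MEOX2 had 1 and 0 counts (MEOX1) and 5 and 1 counts (MEOX2).

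Of 42 further mesenchymal factors, 38 were detected, a share of 90.5% beside 53.9% of all genes. SMAD3, which carries the TGF-β signal, was the highest (268 ± 0.29 TPM), beside 6.75 ± 0.164 TPM for SMAD2 and 23.8 ± 1.11 TPM for SMAD4. CEBPB (139.9 ± 9.92 TPM), SNAI2 (137 ± 0.997 TPM), ETS1 (137 ± 11.5 TPM), STAT3 (133 ± 5.96 TPM) and KLF6 (126 ± 2.67 TPM) followed. The fibroblast factor PRRX1 had 133 and 132 CPM and TWIST1 22 and 26.2 CPM. The members not detected were EBF2, EBF3, RUNX3 and MEF2B, and the exons of MEF2B (0 counts) overlap a readthrough gene over 76.8% of their length, which leaves that value uncertain. In the AP-1 family, FOSL1 (292 ± 22 TPM), JUN (240.2 ± 4.25 TPM) and JUND (152 ± 0.47 TPM) were the highest. FOS itself, the early response gene, had 3.38 and 1.79 CPM, and BATF, a lymphocyte factor, had 0 counts.

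Of 48 nuclear receptors, 26 were detected, a share of 54.2% beside 53.9% of all genes. They were led by the COUP factors NR2F2 (132 ± 1.39 TPM) and NR2F1 (114 ± 1.49 TPM), then RXRB (84.3 ± 3.19 TPM), PPARD (71.8 ± 4.97 TPM) and the glucocorticoid receptor NR3C1 (66.1 ± 2.33 TPM). The estrogen receptor ESR1 had 1 and 0 counts, RARB 0 and 1 counts and the liver factor HNF4A 1 and 2 counts. Of 25 SOX and GATA genes, 11 were detected, a share of 44% beside 53.9% of all genes. SOX4 was the highest (171 and 172 CPM), or 161 ± 0.832 TPM, followed per length by SOX12 (69.3 ± 4.09 TPM), SOX9 (30.7 ± 3.72 TPM) and SOX11 (24.6 ± 2.35 TPM). GATA6 had 1.56 and 2.59 CPM, and the endothelial SOX17 and SOX18 had 0 counts in both libraries.

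The HOX genes are transcription factor genes whose clusters are switched on in order along the body axis. Of 39 genes, 13 were detected, a share of 33.3% beside 53.9% of all genes. All 13 lay in the HOXA and HOXB clusters, in paralogue groups 2 to 7 of HOXA (6 of 11 genes) and 2 to 8 of HOXB (7 of 10 genes). None of the 9 HOXC and 9 HOXD genes was detected, and none of the 16 genes of groups 9 to 13, where the highest value in any library was 0.313 CPM. HOXB5 (117 ± 1.56 TPM), HOXB6 (74.4 ± 10.2 TPM), HOXB4 (73.9 ± 6.54 TPM), HOXA5 (62.7 ± 7.91 TPM), HOXB7 (61.9 ± 18.7 TPM) and HOXB2 (47.1 ± 8.38 TPM) were the highest per length. The clusters summed to 41.1 and 46.9 CPM for HOXA, 217 and 226 CPM for HOXB, 1.63 and 2.53 CPM for HOXC, and 0.876 and 1.05 CPM for HOXD. HOXB1, at the 3′ end of its cluster, had 0 counts in both libraries. Neighbouring genes of a cluster can share antisense transcripts, whose reads cannot be told apart where the counting did not use strand, and the strand setting is not given in the sources used here.

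**Figure D3:**
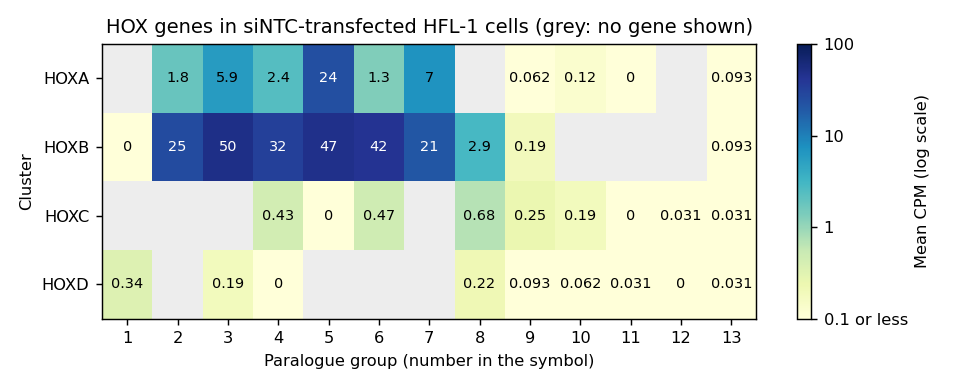
Mean CPM of the 2 siNTC libraries for HOX genes, with clusters as rows, paralogue groups as columns and colour on a log scale, grey where no gene is shown. The darker cells lie in groups 2 to 7 of HOXA and 2 to 8 of HOXB, and the HOXC and HOXD rows stayed under 1 CPM.

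The pathway studied in the series, Hippo, keeps the coactivators YAP and TAZ out of the nucleus by phosphorylation. Of its 23 genes, 21 were detected, a share of 91.3% beside 53.9% of all genes. YAP1 had 208 and 191 CPM (144 ± 8.49 TPM) and WWTR1, the gene of TAZ, 130.5 and 128 CPM (70.7 ± 0.87 TPM). All 4 TEAD genes, whose proteins bring YAP and TAZ to DNA, were detected, with 139.8 ± 8.85 TPM for TEAD2, 126 ± 3.89 TPM for TEAD3, 99.4 ± 1.14 TPM for TEAD1 and 35.2 ± 1.31 TPM for TEAD4. VGLL1 and VGLL2 had 0 counts in both libraries.

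The cells carried transcripts of dividing cells. All 30 genes of S phase and mitosis were detected, beside 53.9% of all genes. At 100 CPM or more were 18 of them, beside 9.15% of all genes. MKI67 had 194 and 203 CPM, TOP2A 414 and 416 CPM, PCNA 133 and 141 CPM and CCNB1 221 and 202 CPM. All 16 genes of G1 cyclins and CDK inhibitors were detected too. The CDK inhibitor CDKN1A (p21) was the highest (815 and 746 CPM, 1190.5 ± 72.6 TPM), next to the cyclin CCND1 (893 and 872 CPM, 847 ± 12.3 TPM), while the inhibitor CDKN2A, a sign of replicative senescence, had 4.82 and 3.64 CPM and CCND2 7.32 and 5.92 CPM. All 19 glycolysis genes were detected and took 1.08% and 1.08% of the counts, led by GAPDH (4464 ± 38.3 TPM) and PGAM1 (1329 ± 22.7 TPM). Of 87 cytosolic ribosomal protein genes, 83 were detected, with 2.77% and 2.72% of the counts.

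Immune-related genes were divided. The class I genes HLA-B, HLA-C and HLA-E lay between 222 and 269.6 CPM, and B2M, their shared light chain, had 875 and 895 CPM. Of the class II genes, HLA-DMA (1.44 and 1.23 CPM) and HLA-DPB1 (1.5 and 3.52 CPM) were detected, with 1 and 0 counts for HLA-DRA, 0 and 1 counts for HLA-DRB1 and 3 and 2 counts for their regulator CIITA. The values of single HLA genes are uncertain, since they share reads. Of 25 interferon-induced genes, 18 were detected, a share of 72% beside 53.9% of all genes. They were led by the membrane proteins IFITM3 (262 and 264 CPM) and IFITM2 (143 and 124 CPM), while MX1 had 2.56 and 2.9 CPM, RSAD2 12 and 5 counts and OAS1 6 and 1 counts. Among 21 long noncoding RNAs found in the table, 16 were detected, and MALAT1 (391 ± 19 TPM), TUG1 (88.7 ± 3.69 TPM) and MIR22HG (74.7 ± 3.17 TPM) were the highest per length. The imprinted MEG3 had 181 and 158 CPM, and it led with 689 TPM, beside 33.4 TPM, when the canonical transcript gave the length. The fetal transcript H19 had 4 and 1 counts.

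Markers of other lineages were mostly not detected at 1 CPM, except those of smooth muscle and pericytes. This rests on the threshold. At 0.5 CPM in both libraries, 6 of 12 neural, 7 of 10 cartilage and bone and 4 of 12 endothelial markers passed. The numbers at 1 CPM were 1, 4 and 2. Of 20 epithelial markers, 7 were detected, from 34.1 and 35.3 CPM for KRT18 to 1.56 and 1.17 CPM for EPCAM, and the list summed to 58.1 and 58.7 CPM. The surfactant genes SFTPC and SFTPB had 0 and 1 counts (SFTPC) and 0 and 1 counts (SFTPB), SFTPD and the club cell gene SCGB1A1 had 0 counts in both, the lung epithelial factor NKX2-1 had 1 and 0 counts and CDH1 had 4 and 7 counts. Of 12 endothelial markers, TEK (40.6 and 40.03 CPM) and ROBO4 (3.56 and 2.1 CPM) were detected, while PECAM1 had 2 and 3 counts and CDH5 1 and 1 counts. Of 14 blood cell markers, CD4 alone was detected (19.1 and 20.9 CPM), and PTPRC, which marks all leukocytes, had 0 and 2 counts. FCER1G had 99 and 7 counts, so replicate 1 alone passed 1 CPM, where 3 blood markers did.

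All 10 markers of smooth muscle and pericytes were detected, with ACTG2 (428 and 445 CPM) and CSPG4 (225 and 248 CPM) above 100 CPM and the pericyte gene RGS5 at 3.44 and 2.71 CPM. Mesothelial markers were low, with 3 of 7 detected, up to 6.32 and 4.01 CPM for CALB2, and 3 and 2 counts for MSLN. Of the striated muscle genes, ACTC1 had 38.3 and 38.6 CPM, while the muscle factors MYOD1, MYOG and MYF5 had 0 counts in both libraries (MYOD1), 2 and 0 counts (MYOG) and 1 and 0 counts (MYF5). PPARG, read as a fat marker, had 35.6 and 36 CPM, beside 2 and 1 counts for ADIPOQ and 6 and 0 counts for FABP4. SOX9 and MATN3, of cartilage, had 28.7 and 24.1 CPM (SOX9) and 41.3 and 36.4 CPM (MATN3), and the bone factor SP7 had 1 and 1 counts.

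None of the 10 liver markers was detected (1 with either library alone), and ALB had 0 counts in both libraries. Of 12 neural and glial markers, SYP was detected (1.38 and 1.05 CPM), while 3 passed 1 CPM in replicate 2 alone and 2 in replicate 1 alone. The glial factor SOX10 had 0 and 1 counts. Of 10 markers of pluripotent and germ cells, ZP3 (6.38 and 7.03 CPM) and DPPA4 (1.69 and 1.48 CPM) were detected, while POU5F1 had 0 counts in both libraries and NANOG 1 and 0 counts. The 6 lung fibroblast markers summed to 35298 and 35649.6 CPM. The smooth muscle and pericyte list summed to 736 and 781 CPM, and the cartilage and bone list to 83.7 and 75.6 CPM. The endothelial list summed to 46.7 and 45 CPM, the blood list to 27.3 and 22.3 CPM, and the liver list to 2.44 and 2.04 CPM.

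**Figure D4:**
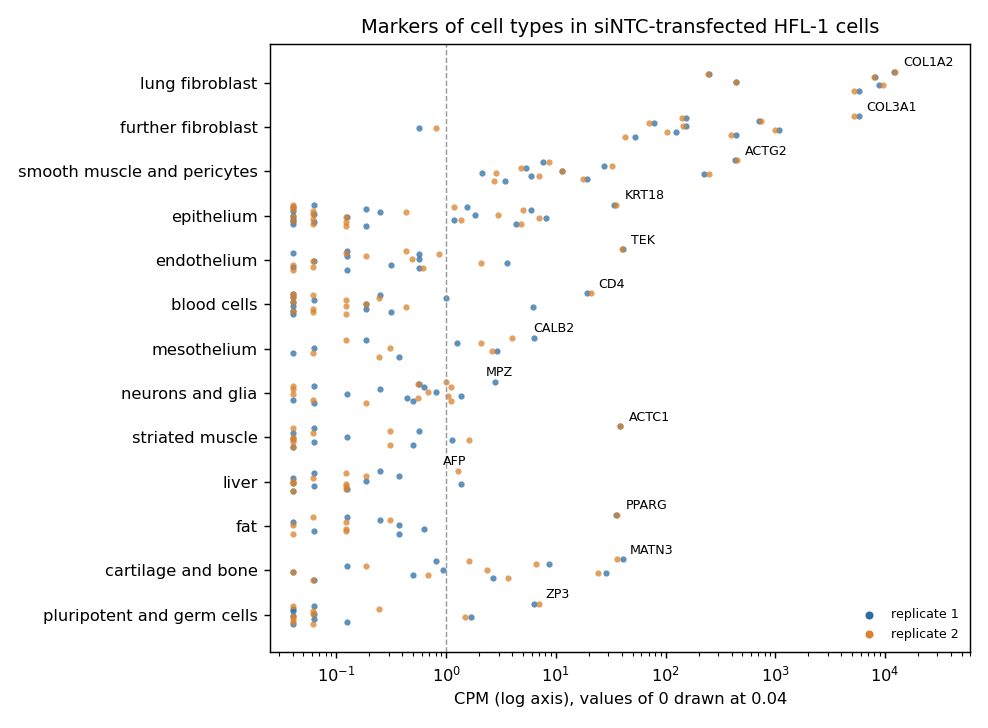
CPM (x axis, log) of the markers of 13 cell types, with replicate 1 in blue, replicate 2 in orange, the highest gene of each list named, 1 CPM as a dashed line and values of 0 at the left edge. PDGFRB, the lowest of the lung fibroblast markers, lay at 248.6 and 243 CPM, and most markers of epithelium, endothelium, blood and liver lay under 1 CPM.

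It was asked how far the 2 siNTC libraries agreed. Across the 12589 detected genes, which are not independent replicates, log2 CPM had a Pearson r of 0.99 and CPM a Spearman rho of 0.993, and gene length and depth are shared by both axes. The median absolute difference was 0.13 on the log2 scale (pseudocount of 0.5 counts), a fold of 1.1, and 95% of detected genes lay within 0.62 on that scale. The difference shrank with level: it was 0.31 for 2865 genes at 1 to 10 CPM, 0.13 for 7509 genes at 10 to 100 CPM, 0.07 for 2129 genes at 100 to 1000 CPM and 0.05 for 86 genes above. Counting error alone would give medians of 0.16, 0.06, 0.03 and 0.01 in these ranges. edgeR's common dispersion from the 2 columns was 0.00768, a coefficient of variation of 8.76%.

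By an exact binomial test of each gene's counts (2-sided, Benjamini-Hochberg over 19640 genes with a count), 3111 genes (15.8%) differed between the libraries at an FDR of 0.05, 1462 higher in replicate 2 and 1649 higher in replicate 1. This test compares 2 libraries, not conditions, treats reads as independent and covers counting error only, and at high counts it calls small differences. Among the 3111 genes, 784 differed by 1.5-fold or more and 420 by 2-fold or more. With a mean of 10 CPM or more, only AMY1A, MT1G, DNALI1 and FAM98B differed by 2-fold or more. Of the 25 highest genes by TPM, 17 passed the test, with a largest fold of 1.149. Of the 6 lung fibroblast markers, 3 passed, with a largest fold of 1.1. Among all detected genes, 66.3% of those with a mean of 1000 CPM or more passed, and 32.4% of those at 100 to 1000 CPM. COL1A1 was higher in replicate 2 by 0.11 on the log2 scale, and VIM was lower in replicate 2, with a log2 difference of -0.14. Over 23 chromosomes, the share of counts in replicate 2 was 0.982 to 1.02 times that in replicate 1.

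Among genes with a mean of 10 CPM or more, the 5 largest differences each way were taken. Higher in replicate 1 were AMY1A (250 and 81 counts), the metallothionein gene MT1G (331 and 160 counts), ARRDC2 (220 and 112 counts), TTC28-AS1 (271 and 141 counts) and FAM126B (216 and 116 counts), with log2 differences of -1.64 to -0.91. Higher in replicate 2 were FAM98B (410 and 906 counts), DNALI1 (133 and 271 counts), ZCCHC4 (202 and 393 counts), C1D (153 and 296 counts) and KSR1 (171 and 329 counts), with log2 differences of 0.92 to 1.12. AMY1A and MT1G belong to families of near-identical copies, so their values are uncertain.

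**Figure D5:**
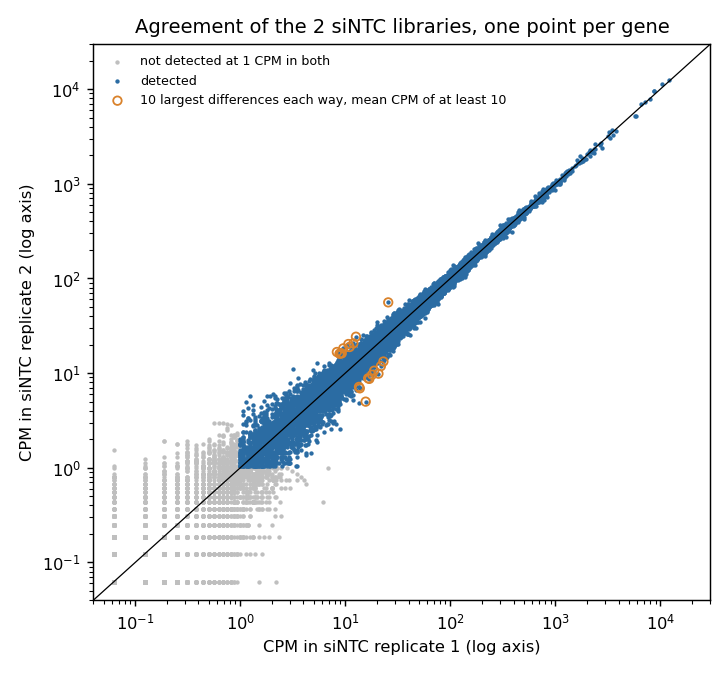
CPM in siNTC replicate 1 (x axis, log) against replicate 2 (y axis, log) for each gene with a count in both, with detected genes in blue, the other genes in grey and circles around the 10 largest differences in each direction among genes of 10 CPM or more. The points narrow towards the diagonal as the level rises, from a median difference of 0.31 to 0.05 on the log2 scale.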

How the data were processed

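RNA of HFL-1 cells was sequenced in 6 libraries, of which the 2 siNTC libraries were described. Per the labels and the study's methods, the authors mapped the Ion Proton reads with TMAP (build hg19) and assigned them to genes with HTSeq 0.6.1, and the deposited table holds the resulting counts without normalisation. Neither the use of strand nor the mode of counting is given in the sources used here. The table has 23368 entries, of which 13 are dates in place of symbols and were left out. No value column was left without a sample.

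CPM was computed with the column sum over genes with a symbol (15990711 and 16210968 counts). TPM used the exon union length on GRCh37, found for 21455 genes, 1899 of them through a synonym. The groups came from the sample labels. No contrast with siTAZ was made. The 2 libraries were compared by an exact binomial test per gene with Benjamini-Hochberg adjustment (SciPy 1.17.1, Python 3.11.15), tested on simulated data. Scaling factors and the dispersion came from edgeR 4.0.16, and size factors from DESeq2 1.42.0, in R 4.3.3. Alternatives were other detection thresholds, other scalings, other gene lengths, other pseudocounts, a filter on low counts and each library alone. Promoters of RefSeq on GRCh38.p14 run from 250 bases before to 50 after the start.

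The members and gene lists were chosen with earlier results of these data known. Named were the 25 highest genes per length and the 10 with the most CPM, the markers of the label, up to 6 of the highest and 6 of the lowest members of each list, members of the ligand and receptor pairs described, and, each way, the 5 genes most different between libraries among those of at least 10 CPM on average. The following further genes were chosen after their values were seen: ACTA2, AGTR1, ANXA2, BMP7, CDH1, CNN1, COL10A1, COL17A1, COL4A3, COL4A4, CYR61, EDNRA, EDNRB, ELN, FBN1, FBN2, FLNA, GATA6, GLI2, GLI3, GPC1, HLA-DPB1, IL6, IL8, INS-IGF2, ITGA8, ITGB6, LAMB3, LOX, LOXL1, MEG3, MKI67, MMP9, PODN, POSTN, POTEE, POTEF, PRRX1, PTGER2, SDC2, SMAD2, SMAD4, TAGLN, TBX4, TCF21, TEAD4, TPM2, TWIST1, VCAN and WWTR1. Some genes that the rule names are not reported here.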

Additional observations from a re-analysis of the deposited data

Results flagged for a closer look

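The 13 entries of the table that hold a date in place of a gene symbol belong to no comparison above. They held 7531 counts in siNTC replicate 1 and 8025 counts in siNTC replicate 2, above the limit of 3 counts that a count of 0 allows. These counts make up 0.0471% and 0.0495% of the counts of the libraries. Which genes the dates stand for was not worked out.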

How the results depend on the processing

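The number of detected genes ran from 10788 (5 CPM in both libraries) to 13294 (0.5 CPM), beside 12589, and was 12851 to 12929 with 1 library alone. The 10 highest genes per length took 9.03% of the summed level, and 8.28% with the longest transcript, 8.47% with the canonical transcript (chosen after seeing the data), 7.79% without division by length and 8.96% to 9.12% with 1 library alone. Of the 25 highest genes, 16 remained without division by length, 23 with the longest and 20 with the canonical transcript, and 25 with each library alone. The matrix genes took 7.62% of the counts (7.61967% to 7.62256% with 1 library alone), 7.61743% with all entries of the table in the sum, and 4.14% per length. Of the 3111 genes that differed between the libraries, 784 differed by 1.5-fold or more, and other scalings and a filter on low counts gave 3144 to 3222. The size factors of DESeq2 were 1 and 1, so its 3222 genes came from depths taken as equal. The median absolute log2 difference stayed at 0.13 under each pseudocount and scaling tried. Counts of detected members in the 54 lists and marker sets moved by over 1.5 times for 12 at 5 CPM and for 3 at 0.5 CPM. The 3 were the neural, the cartilage and bone and the endothelial markers. With 1 library alone the counts moved for 2 (replicate 2) and 3 (replicate 1): the liver markers from 0 to 1 with either, the neural markers from 1 to 3 and 2, and the blood markers from 1 to 3 with replicate 1. With the canonical transcript the highest gene changed in 13 of 41 lists. The alternative without mitochondrially encoded genes was not run, since the table lists none. Leaving out a library leaves no test between the 2. No paired analysis was possible because 1 group of samples entered and no groups were compared. With 2 libraries, an SD rests on 2 values, and levels under 1 CPM rest on few counts.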
